A study of Mus musculus with 6 samples.

Results

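The axon guidance genes of pericytes, contractile support cells that sit on the outer wall of small vessels, were examined on 1-colour arrays of mouse cultures kept with or without platelet-derived growth factor BB (PDGF-BB). The members were the semaphorin, plexin, slit, roundabout (Robo), netrin and UNC5 genes, taken by gene symbol. They comprised 44 of the 20239 genes with a named probe set: 20 semaphorins, 9 plexins, 3 slits, 4 Robo genes, 4 netrins and 4 UNC5 genes. The control group was 3 arrays of isolated C57BL/6 pericytes kept for 5 days without added PDGF-BB, and the treated group was 3 arrays of the same kind of cells given PDGF-BB at 100 ng/ml for 5 days. The labels give no age, sex or tissue of origin, nor whether each array had its own isolation or culture, so a p-value here reflects variation among 6 samples that could be technical only.

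Semaphorins are secreted or membrane-bound ligands that signal through plexins, receptors whose cytoplasmic part acts on small GTPases of the Ras and Rap families. The secreted class 3 semaphorins mostly need a neuropilin as the binding partner of a plexin. Slits bind Robo receptors, and netrins bind DCC, neogenin and the UNC5 receptors. These systems were first known from growing axons, where they attract or repel the growth cone, and they also steer endothelial cells and shape contacts between cells in vessels.

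Every value is a log2 expression value made by the authors with RMA, a method that corrects the background, equalises the arrays and summarises each probe set. Changes are given on the log2 scale, the treated mean less the control mean. A gene was called where its Benjamini-Hochberg adjusted p over all 20239 genes was under 0.05 in limma, a linear model with moderated variances. Probe sets bind with different strength, so changes were read between arrays for each gene. Levels were set beside those of other genes for the background level, the choice of genes by level and the sums over markers. Those uses are rough for the same reason. A background level of 8.02 was taken as the 90th percentile of 19 markers of lymphocytes, mast cells and red cells; genes with both group means under it may not have been expressed, and a change measured from under it is a lower bound. Of those 19 markers, Cd3e and Ank1 lay above the level themselves, and Ank1 rose 3.12-fold, so it is a cautious value, and at the 75th percentile it would be 7.33.

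PDGF-BB changed 12 of the 44 guidance genes (27.3%), against 21.5% of all genes tested. Semaphorins made up 9 of the 12: Sema7a, Sema6b, Sema6d, Sema5a and Sema4c rose, and Sema3c, Sema6c, Sema3b and Sema4g fell. The other 3 were receptors that fell, Unc5c, Plxnb1 and Plxnb2. In all, 5 members rose (background 10.1%) and 7 fell (background 11.4%). The median log2 change was -0.03 over the members and -0.02 over all genes, and its median size regardless of direction was 0.26 against 0.11. These sets were not matched for level: 31 of the 44 members and 11572 of the 20239 genes had a group mean above background. Among the 13 members under it the median size was 0.07. No slit, Robo gene or netrin was called in limma, where 1 of 3 slits, 1 of 4 Robo genes and 0 of 4 netrins had an unadjusted p under 0.05. Such a p was found in 20 of the 44 members and in 6614 of all 20239 genes. At least 2-fold changes were seen in Sema7a, Sema3c and Unc5c. The 3 treated arrays lay on 1 side of the 3 controls in 20 of the 44 members, and in 37.6% of all genes.

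**Figure D1:**
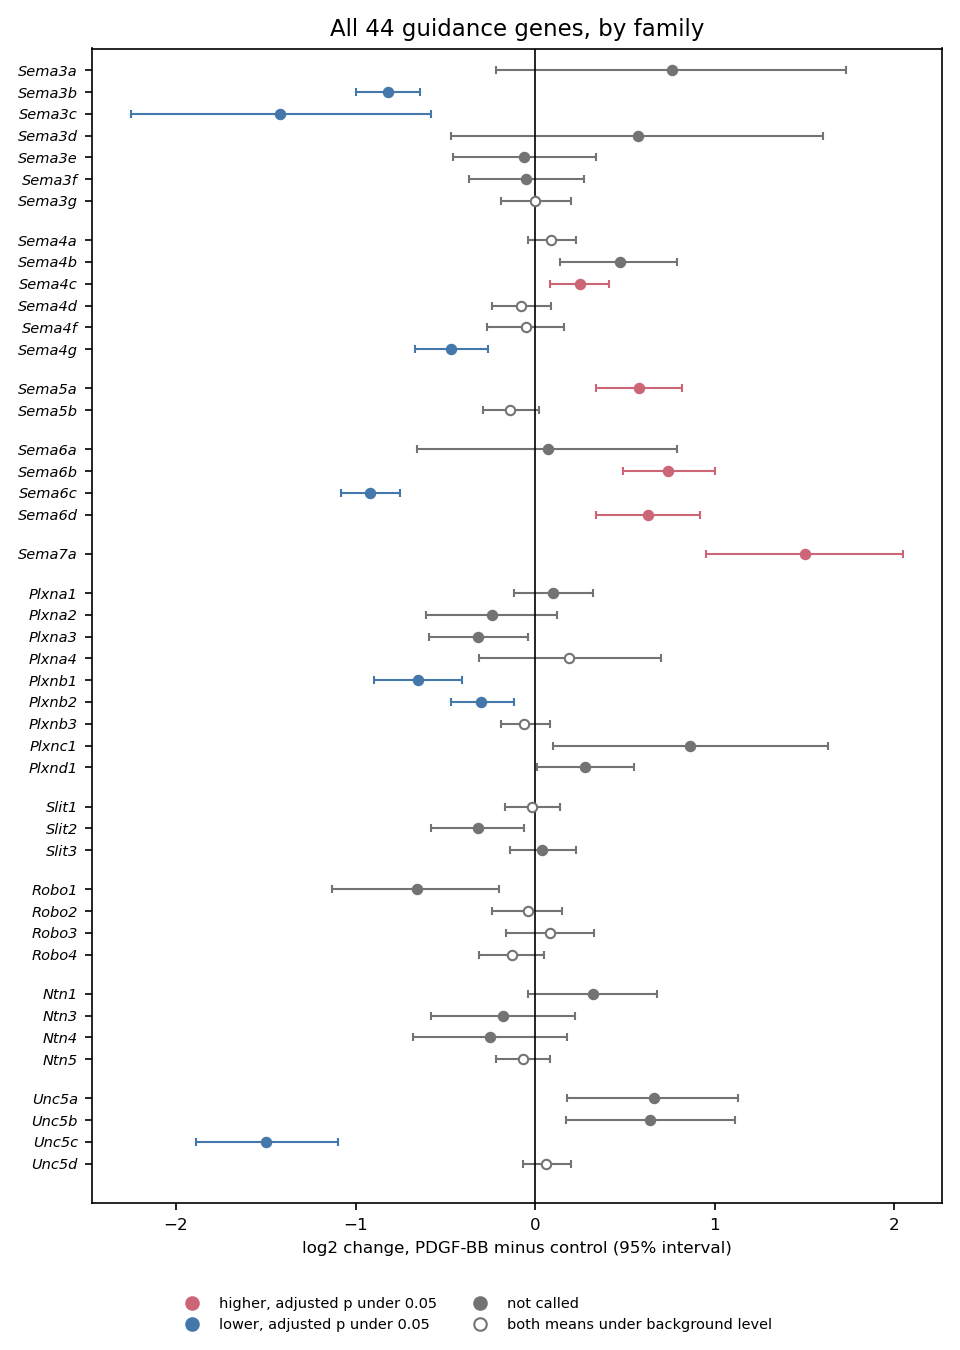
Log2 change of each of the 44 guidance genes (horizontal axis, PDGF-BB minus control, with the 95% interval of the limma fit, 3 arrays a group), listed by family; red marks genes that rose, blue genes that fell, and open circles genes with both means under the background level of 8.02. Changes ran from -1.50 (Unc5c) to 1.50 (Sema7a), and none of the 13 genes with open circles was called.

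The labels do not say what arrays of the same replicate number share, and the pairing was inferred from these same data. Deviations from the group means correlated at 0.25 to 0.32 across genes between arrays of the same number. With the replicate number as a block in the limma fit, 20 of the 44 genes were called, against 23.4% of all genes. Of these, 11 were higher and 9 lower, against 10.9% and 12.5% of all genes. They include all 12 named above and 8 more, Sema3a, Sema4b, Plxnc1, Plxnd1, Unc5a and Unc5b higher, and Robo1 and Plxna3 lower. Their blocked values are given with each gene.

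Promoter sequence was read for 36 members, 11 of the called genes among them, from RefSeq's table for GRCm38.p6 as the 250 bases before each annotated transcript start. Shown here are the windows of the called genes with the largest falls, Sema3c and Unc5c, and of the class 6 pair Sema6b and Sema6c, which moved in opposite directions. Each lies before the outermost annotated start of its gene and is written 5′ to 3′ on the gene's own strand, with the GC box GGGCGG, or its reverse complement, in capitals.
Sema3c, chr5:17574566-17574815, plus strand, 78.4% GC: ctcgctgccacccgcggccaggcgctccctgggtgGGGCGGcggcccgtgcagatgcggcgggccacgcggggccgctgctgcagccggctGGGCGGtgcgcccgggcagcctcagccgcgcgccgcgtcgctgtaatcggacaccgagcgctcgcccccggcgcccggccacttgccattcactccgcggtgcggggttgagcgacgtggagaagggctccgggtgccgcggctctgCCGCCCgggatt
Unc5c, chr3:141465314-141465563, plus strand, 71.2% GC: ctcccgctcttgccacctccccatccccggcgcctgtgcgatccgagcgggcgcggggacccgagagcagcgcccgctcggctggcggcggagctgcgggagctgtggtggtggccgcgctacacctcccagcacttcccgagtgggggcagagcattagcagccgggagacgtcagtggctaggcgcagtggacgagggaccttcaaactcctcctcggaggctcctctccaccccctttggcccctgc
Sema6b, chr17:56140344-56140593, minus strand, 66% GC: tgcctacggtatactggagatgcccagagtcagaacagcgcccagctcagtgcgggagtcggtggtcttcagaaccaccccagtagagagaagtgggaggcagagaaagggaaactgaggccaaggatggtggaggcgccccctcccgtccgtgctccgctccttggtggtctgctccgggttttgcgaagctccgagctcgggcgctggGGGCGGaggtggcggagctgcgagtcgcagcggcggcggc
Sema6c, chr3:95160170-95160419, plus strand, 57.6% GC: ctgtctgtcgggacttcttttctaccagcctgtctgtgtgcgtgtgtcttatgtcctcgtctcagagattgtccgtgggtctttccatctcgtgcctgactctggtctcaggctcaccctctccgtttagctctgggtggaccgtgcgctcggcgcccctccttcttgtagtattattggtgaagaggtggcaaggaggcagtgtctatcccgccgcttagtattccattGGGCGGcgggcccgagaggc
These are GC-rich windows, with 39 CpG dinucleotides in that of Sema3c, 23 in Unc5c, 20 in Sema6b and 15 in Sema6c. The median was 13 over the 49 windows of all members, since some genes have several, and 6 over the 32851 windows of the whole table. GC boxes stood in 65.3% of member windows and in 32.7% of all windows, beside a median GC content of 64% and 52.4%. They were present in at least 1 window of genes that rose (Sema4c, Sema5a, Sema6b, Sema6d, Sema7a) and of genes that fell (Plxnb1, Plxnb2, Sema3c, Sema4g, Sema6c), but these letters are not in the window of Unc5c. The AP-1 motif TGANTCA occurred in 6.12% of member windows, 1 window each of Sema4c, Sema6b and Sema4d, against 6.75% of all windows; that of Sema6b is its other window, which is not shown. The E-box CACGTG also occurred in 6.12%, 1 window each of Sema6d, Robo2 and Sema4b, against 6.02% of all. Both strands were searched, none of the motifs contains another, and a match is a stretch of letters and not a shown binding site. Searches for the FOX motif GTAAACA, the ETS motif CCGGAAGT, the SMAD palindrome GTCTAGAC and the cyclic AMP response element TGACGTCA found no match in these windows; 3.17%, 2.88%, 0.167% and 1.55% of all windows hold them.

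Among the 7 secreted class 3 semaphorins, 2 fell and none rose without the block (28.6% called, against 21.5% of all genes). Sema3c, which guides neural crest and endothelial cells through neuropilins and plexins (Entrez gene 20348), measured 11.06, 11.92 and 10.93 on control arrays 1 to 3, and 10.16, 10.29 and 9.21 on the PDGF-BB arrays. All 3 treated arrays lay under all 3 controls, although both groups spread widely. The fall was 2.67-fold (log2 change -1.42, SE 0.35, adjusted p = 0.029, limma). It passed more clearly with the replicate block (adjusted p = 0.0032, limma) and was lost without control array 2 (0.07), PDGF-BB array 1 (0.061) or PDGF-BB array 3 (0.063). Sema3b, a relative known as a tumour suppressor candidate (Entrez gene 20347), measured 9.05, 9.29 and 9.25 in control and 8.40, 8.37 and 8.37 with PDGF-BB. The treated arrays were nearly identical and well under the controls, a 1.76-fold fall (log2 change -0.82, SE 0.08, adjusted p = 0.0013, limma).

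Sema3a, the prototype growth cone collapsing factor (Entrez gene 20346), was higher in each pair of arrays. It measured 11.39, 11.66 and 10.30 in control and 12.05, 12.37 and 11.20 with PDGF-BB, so the groups overlapped. Array 3 was the lowest of each group, and within the pairs numbered 1, 2 and 3 the difference was 0.66, 0.72 and 0.90. The log2 change was 0.76 (95% interval -0.22 to 1.73), with an adjusted p of 0.27 in limma without the block and 0.0021 with it. Without control array 3, its lowest array, the change was 0.35, and over all fits without 1 array it ran from 0.35 to 1.09 and never passed (adjusted p = 0.13 to 0.59, limma). Those fits had no block, and leaving out 1 array split a pair, so they do not test the differences within pairs. Sema3f, another neuropilin ligand, had a control value of 11.41 ± 0.21 and a treated value of 11.36 ± 0.20 (SD, n = 3 each), with a 95% interval of the log2 change from -0.37 to 0.27. Sema3e, the direct ligand of plexin D1, had a log2 change of -0.06 (95% interval -0.46 to 0.34). Sema3d measured 8.41, 7.57 and 7.73 in control and 9.08, 7.44 and 8.88 with PDGF-BB, a difference within its spread (adjusted p = 0.45, limma), and both means of Sema3g lay under the background level. In RefSeq's gene table Sema3d, Sema3a, Sema3e and Sema3c follow each other on chromosome 5, with 0, 3 and 15 protein-coding genes between neighbours. Sema3b and Sema3f lie on chromosome 9 with 3 between them. Neighbours did not all share a direction: Sema3c fell and Sema3a was higher in each pair of arrays, and Sema3b fell while the interval of Sema3f spanned 0.

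Sema7a, the only semaphorin held by a lipid anchor and a ligand of plexin C1 and β1 integrins (Entrez gene 20361), had the largest rise of all members. It measured 8.91, 7.97 and 8.52 in control and 9.83, 10.22 and 9.85 with PDGF-BB. Every treated array exceeded every control. The rise was 2.83-fold (log2 change 1.50, SE 0.23, adjusted p = 0.0053, limma) and was called in each of the 6 fits that left out 1 array (log2 change 1.25 to 1.73). Plxnc1, its plexin, measured 7.99, 8.08 and 7.68 in control, around the background level, and 8.54, 9.57 and 8.22 with PDGF-BB. The groups did not overlap, but PDGF-BB array 2 stood far above the other arrays, and the change of 0.86 (95% interval 0.10 to 1.63) had an adjusted p of 0.11 in limma and of 0.024 with the block. Without PDGF-BB array 2 the change was 0.47 (adjusted p = 0.099, limma). Itgb1, the β1 integrin subunit, had a log2 change of 0.04 (95% interval -0.09 to 0.17).

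The transmembrane class 6 semaphorins, which bind A-type plexins and can also act as receptors themselves, split: Sema6b and Sema6d rose and Sema6c fell. Sema6b measured 8.90, 8.80 and 8.93 in control and 9.82, 9.40 and 9.65 with PDGF-BB, a 1.68-fold rise (log2 change 0.74, SE 0.11, adjusted p = 0.0044, limma). Sema6d, known from heart development, measured 10.16, 10.31 and 10.46 in control and 10.99, 11.11 and 10.72 with PDGF-BB, a 1.55-fold rise (log2 change 0.63, SE 0.12, adjusted p = 0.012, limma). In both genes every treated array exceeded every control. Sema6c measured 8.94, 9.15 and 9.07 in control and 8.12, 8.14 and 8.15 with PDGF-BB, just above the background level. Its 1.89-fold fall (log2 change -0.92, SE 0.07) had the smallest adjusted p of the 44 genes (0.00072, limma). Sema6a, the fourth of the class, varied mainly between array numbers: 11.18, 10.55 and 11.24 in control and 11.53, 10.41 and 11.24 with PDGF-BB. Its log2 change of 0.07 had a wide 95% interval, from -0.66 to 0.79.

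Sema5a, a transmembrane semaphorin with thrombospondin repeats, measured 11.74, 11.56 and 11.52 in control and 12.21, 12.35 and 12.01 with PDGF-BB. This was a 1.50-fold rise without overlap of the groups (log2 change 0.58, SE 0.10, adjusted p = 0.0083, limma), and both means of its relative Sema5b lay under the background level. In class 4, whose members bind mostly B-type plexins, Sema4g fell from 8.41, 8.58 and 8.48 to 7.99, 7.90 and 8.18, or 1.38-fold (log2 change -0.47, SE 0.09, adjusted p = 0.011, limma). The treated arrays of Sema4g lay around the background level. Sema4c, a plexin B2 ligand, measured 10.06, 10.10 and 10.04 in control and 10.21, 10.42 and 10.30 with PDGF-BB. This was a small rise of 1.19-fold (log2 change 0.25, SE 0.07, adjusted p = 0.043, limma). Its call was lost with a trend in the prior variance (adjusted p = 0.069, limma), and on leaving out any 1 control array (0.083 to 0.12) or PDGF-BB array 2 (0.13) or 3 (0.097). Sema4b measured 10.40, 10.00 and 9.91 in control and 10.65, 10.64 and 10.42 with PDGF-BB, groups that just did not overlap. Its log2 change of 0.47 (95% interval 0.14 to 0.79) had an adjusted p of 0.051 in limma, which became 0.016 with the block. It was 0.0074 without control array 1 and 0.065 to 0.15 in the other 5 fits without 1 array. Sema4a, Sema4d and Sema4f had both means under the background level.

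**Figure D2:**
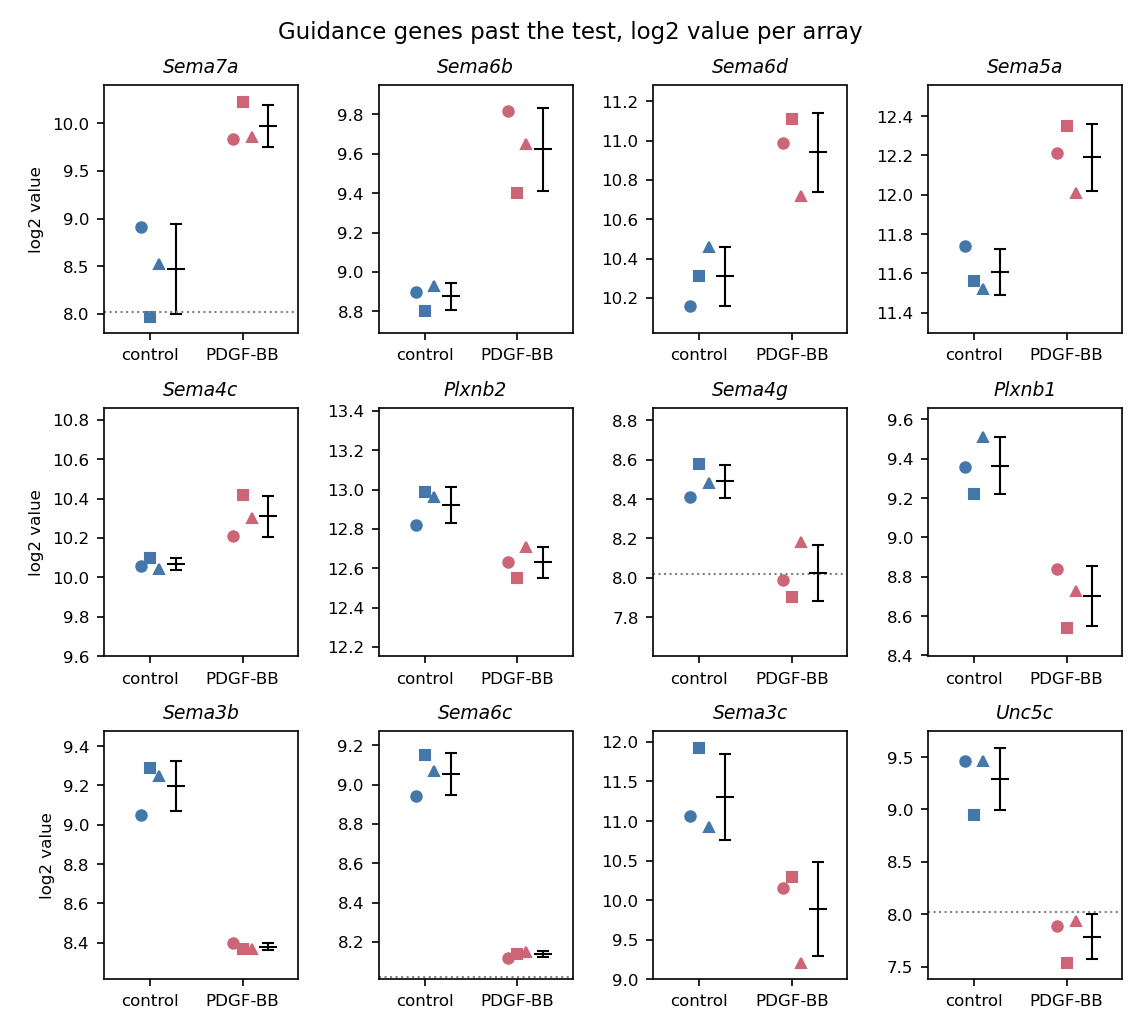
Log2 value (vertical axis, own scale in each panel) of the 12 called guidance genes on 3 control (blue) and 3 PDGF-BB arrays (red); circles, squares and triangles are arrays 1, 2 and 3, black bars are means ± SD, and the dotted line is the background level of 8.02 where it falls in the panel. In all 12 genes the treated arrays lay on 1 side of the controls, as passing the test favours; Sema3c had the widest spread within groups, and Unc5c fell under the dotted line.

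Of the 9 plexins, 2 fell and none rose without the block (22.2% called, against 21.5% of all genes). Plxnb1, a receptor of Sema4d that activates RhoA (Entrez gene 235611), measured 9.36, 9.22 and 9.51 in control and 8.84, 8.54 and 8.73 with PDGF-BB. Each treated array lay under each control, and the fall was 1.57-fold (log2 change -0.65, SE 0.10, adjusted p = 0.0057, limma). Plxnb2, the receptor of Sema4c, measured 12.82, 12.99 and 12.96 in control and 12.63, 12.55 and 12.71 with PDGF-BB. The fall of 1.23-fold was small (log2 change -0.30, SE 0.07, adjusted p = 0.028, limma) and lost its call on leaving out control array 2 (0.088), control array 3 (0.085), PDGF-BB array 1 (0.082) or PDGF-BB array 2 (0.096). Plxnb3, the remaining B-type plexin, lay under the background level.

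The A-type plexins are the signalling receptors of class 3, 5 and 6 semaphorins. None of the 4 was called in limma, where 1 had an unadjusted p under 0.05, against 6614 of all 20239 genes. That gene was Plxna3, which measured 10.45, 10.83 and 10.52 in control and 10.19, 10.42 and 10.24 with PDGF-BB. Its pairs differed by -0.26, -0.41 and -0.28, with an adjusted p of 0.10 in limma and of 0.021 with the block. Plxna1 measured 11.93 ± 0.09 and 12.03 ± 0.15 (SD, n = 3 each; 95% interval of the log2 change -0.12 to 0.32). Plxna2 measured 9.85 ± 0.27 and 9.60 ± 0.21 (95% interval -0.61 to 0.12), and Plxna4 lay under the background level. Plxnd1, the receptor of Sema3e with a known part in vessel patterning, measured 10.04, 10.08 and 10.39 in control and 10.47, 10.29 and 10.58 with PDGF-BB. The groups overlapped, and the change of 0.28 had an adjusted p of 0.14 in limma and 0.047 with the block. It was 0.045 without control array 3 and 0.11 to 0.34 in the other 5 such fits.

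Slit2 and Slit3 lay well above the background level on every array, whereas Slit1 lay under the background level. Slit2, a repellent ligand of Robo receptors (Entrez gene 20563), measured 12.58, 12.95 and 12.84 in control and 12.55, 12.54 and 12.33 with PDGF-BB. The treated arrays lay under the controls, the first control by only a small margin. The log2 change was -0.32 (95% interval -0.58 to -0.06) with an adjusted p of 0.084 in limma and 0.079 with the block. It was 0.023 without control array 1 and 0.13 to 0.22 without any other. Slit3 measured 12.81 ± 0.12 and 12.85 ± 0.07 (SD, n = 3 each; 95% interval -0.14 to 0.23). Robo1 was the only Robo gene above the background level. It measured 9.70, 9.36 and 9.45 in control and 9.18, 8.40 and 8.94 with PDGF-BB, without overlap. The log2 change of -0.66 (95% interval -1.13 to -0.20) had an adjusted p of 0.055 in limma and 0.0081 with the block. It was 0.036 without PDGF-BB array 1 and 0.073 to 0.13 without any other, and the change was -0.44 without PDGF-BB array 2. Both means of Robo2, of Robo3, and of Robo4, the endothelial family member, lay under the background level.

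Unc5c, a netrin receptor that mediates repulsion and, without ligand, can trigger cell death (Entrez gene 22253), had the largest fall of all members. It measured 9.46, 8.95 and 9.46 in control and 7.89, 7.54 and 7.94 with PDGF-BB. All treated arrays were under the background level, and all controls were above it. The fall was at least 2.82-fold (log2 change -1.50, SE 0.17, adjusted p = 0.002, limma), and it was called in all 6 fits without 1 array (log2 change -1.67 to -1.37). Its relatives Unc5b and Unc5a had positive changes that did not pass the test without the block. Unc5b, the family member known from endothelial tip cells, measured 9.66, 10.03 and 10.40 in control and 10.38, 10.80 and 10.83 with PDGF-BB, with overlap between control array 3 and PDGF-BB array 1. Within the numbered pairs it was higher by 0.72, 0.77 and 0.43, and its adjusted p was 0.065 in limma and 0.0053 with the block. Leaving out control array 3 gave 0.028, and the other 5 such fits gave 0.059 to 0.18. Unc5a measured 8.41, 8.40 and 8.19 in control and 8.88, 9.45 and 8.62 with PDGF-BB. The groups did not overlap, and the adjusted p was 0.059 in limma and 0.017 with the block. Leaving out PDGF-BB array 3 gave 0.028, and the other 5 such fits gave 0.058 to 0.16, with a change of 0.42 without PDGF-BB array 2. Unc5d lay under the background level.

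**Figure D3:**
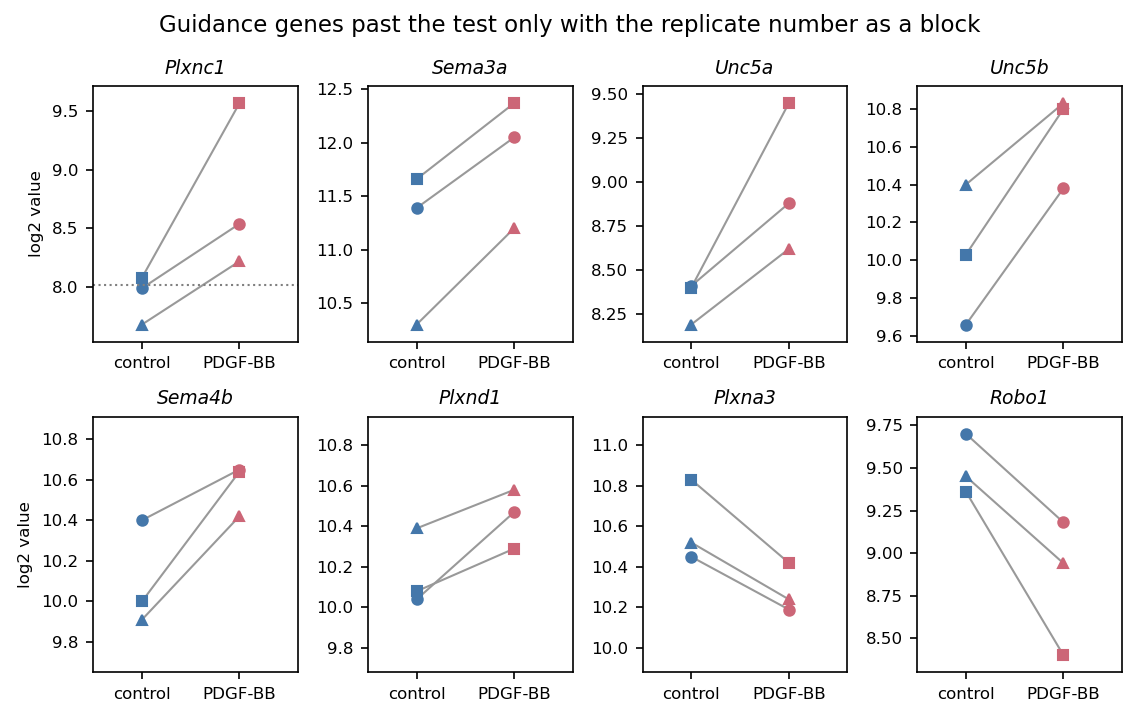
Log2 value (vertical axis, own scale in each panel) of the 8 guidance genes that were called only with the replicate number as a block; grey lines join control (blue) and PDGF-BB (red) arrays of the same number, with circles, squares and triangles for arrays 1, 2 and 3, and the dotted line is the background level of 8.02. All 3 lines of a panel run the same way in each gene, which passing the blocked test favours, as in Sema3a with differences of 0.66, 0.72 and 0.90.

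The 4 netrins had no call in limma without or with the block, against 21.5% and 23.4% of all genes. Ntn1, the classical ligand of UNC5 receptors, DCC and neogenin, measured 9.50, 9.61 and 9.44 in control and 9.80, 10.18 and 9.53 with PDGF-BB. PDGF-BB array 3 lay among the controls, and the log2 change was 0.32 (95% interval -0.04 to 0.68, adjusted p = 0.21, limma). It was 0.15 without PDGF-BB array 2. Ntn4, a laminin-binding netrin of vascular basement membranes, measured 9.08, 8.53 and 8.35 in control and 8.51, 8.44 and 8.27 with PDGF-BB (95% interval -0.68 to 0.18). Ntn3 measured 9.22 ± 0.27 and 9.04 ± 0.26 (SD, n = 3 each), with a 95% interval of -0.58 to 0.22, and Ntn5 lay under the background level.

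The 13 members with both means under the background level were Sema3g, Sema4a, Sema4d, Sema4f, Sema5b, Plxna4, Plxnb3, Slit1, Robo2, Robo3, Robo4, Ntn5 and Unc5d. Their log2 changes ran from -0.14 to 0.19, and none had an unadjusted p under 0.05 in limma or a call with the block. A change in genes this dim may go unseen.

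The co-receptors and signalling partners of these systems were taken from a list of 78 genes, of which 73 were measured. Of these 6 rose and 12 fell (24.7%, against 21.5% of all genes), with a median log2 change of -0.09 against -0.02. Nrp1, the neuropilin that binds class 3 semaphorins and vascular endothelial growth factor, fell 1.86-fold, from 12.44, 12.12 and 12.26 to 11.42, 11.23 and 11.48 (log2 change -0.89, SE 0.10, adjusted p = 0.0023, limma). Nrp2 measured 10.76, 11.07 and 10.10 in control and 10.40, 10.56 and 10.03 with PDGF-BB, with a 95% interval of the log2 change from -0.91 to 0.28. Class 3 ligands did not all go with the fall of Nrp1. Sema3c and Sema3b fell, and Sema3d, Sema3e, Sema3f and Sema3g were not called with or without the block. Sema3a was called higher only with the block (adjusted p = 0.0021, against 0.27 without it, limma). Plxna1 and Plxna2 were not called, and only with the block Plxna3 was called lower and Plxnd1 higher (adjusted p = 0.021 and 0.047, against 0.10 and 0.14 without it, limma).

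Of the netrin receptors outside the UNC5 family, Dcc lay under the background level, and Neo1, neogenin, measured 11.95, 12.17 and 12.13 in control and 12.23, 12.34 and 12.17 with PDGF-BB (95% interval -0.03 to 0.35). The repulsive guidance molecules Rgma and Rgmb, which also bind neogenin, both rose. Rgmb went from 11.99, 11.66 and 11.65 to 12.61, 12.78 and 12.70 (1.90-fold, adjusted p = 0.002, limma), and Rgma rose 1.47-fold (adjusted p = 0.011, limma). Gpc1, the heparan sulphate proteoglycan glypican 1, which binds slits, rose 1.60-fold, and Nrcam, a cell adhesion molecule of semaphorin receptor complexes, at least 1.94-fold. Met and Erbb2, receptor tyrosine kinases that associate with B-type plexins, fell 2.22-fold and 1.39-fold, and Lrrc4c, a netrin G1 ligand, at least 2.24-fold. Met lost its call without PDGF-BB array 3 (adjusted p = 0.057, limma).

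Inside the cell, Rras and Mras, small GTPases on which plexins act, fell 1.29-fold and 1.43-fold. Mical3, a relative of the plexin-binding monooxygenase Mical1, fell 1.32-fold, and Ablim3, an actin-binding LIM protein under the background level in both groups, had a log2 change of -1.01 (adjusted p = 0.0084, limma). Limk1, the kinase that inactivates cofilin, rose 1.52-fold, and Tiam1, an exchange factor for Rac, 1.37-fold. Dpysl2, which carries the semaphorin 3A signal to microtubules, had a log2 change of -0.06 (95% interval -0.20 to 0.08).

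**Figure D4:**
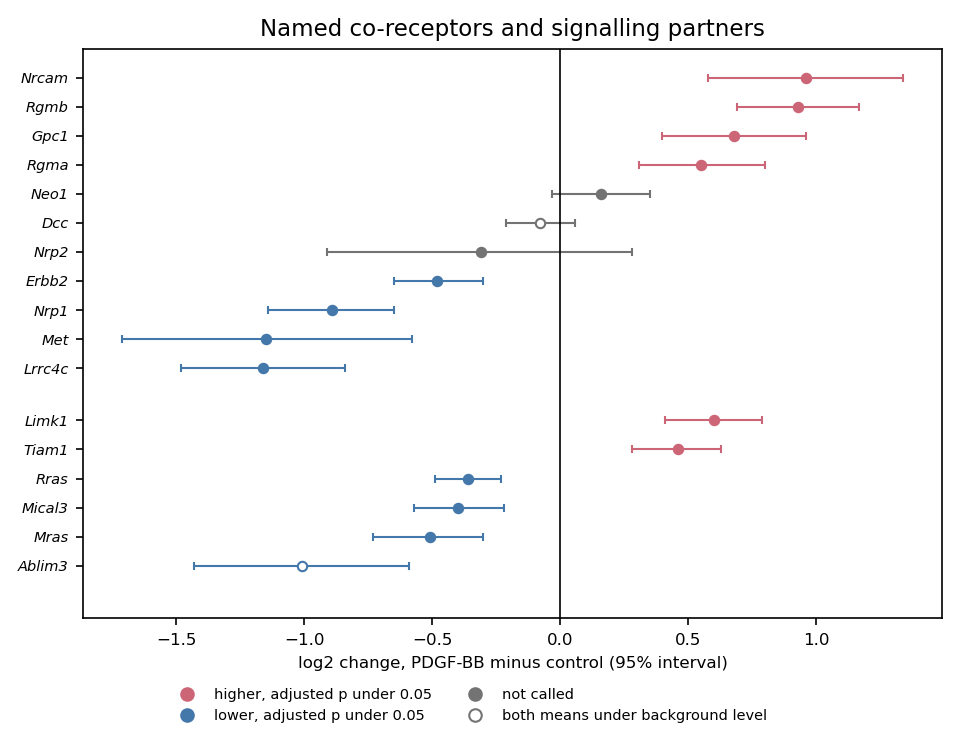
Log2 change (horizontal axis, PDGF-BB minus control, with the 95% interval of the limma fit, 3 arrays a group) of the named receptors and ligands (upper block) and cytoplasmic proteins (lower block) that work with the guidance genes; red marks genes that rose, blue genes that fell, grey genes not called, and open circles genes with both means under the background level. Nrcam and Rgmb had the highest changes (0.96 and 0.93), and Lrrc4c and Met the lowest (-1.16 and -1.15).

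The cells' label was checked against markers. Of 10 pericyte markers, 6 lay above the background level, Pdgfrb at 12.98 and 12.85 among them, while Rgs5, Kcnj8, Abcc9 and Des did not, and 7 of 8 fibroblast markers lay above it. None of 10 neuronal markers and 1 of 11 endothelial markers (Flt1) had a group mean above the level. Values of each list were also summed unlogged for each array, which weighs the brightest probe sets most, so a sum need not follow every marker. The calls given with each list stand beside 10.1% of all genes that rose and 11.4% that fell. Smooth muscle markers ran from 18300 to 22100 on control arrays and from 8150 to 13500 with PDGF-BB (4 of 6 fell, 1 rose). Fibroblast markers ran from 37900 to 42200 and from 44600 to 52300 (2 of 8 rose, none fell). Pericyte markers ran from 14900 to 16400 and from 14100 to 14900 (Anpep rose and Cd248 fell), and 6 Schwann cell and glial markers from 1120 to 1200 and from 1030 to 1090 (Mbp fell). Macrophage markers ran from 1740 to 1840 and from 1820 to 2130 (2 of 10 rose, 2 fell). Neuronal markers ran from 1220 to 1980 and from 1070 to 1160 and endothelial markers from 1740 to 1790 and from 1650 to 1870, with no call in either list in limma (1 unadjusted p under 0.05 in each). Epithelial markers ran from 913 to 999 and from 913 to 1120, with no call and no unadjusted p under 0.05 in limma. Control array 1 stood apart in Stmn2 (9.52, against 7.31 and 7.13 on the other controls) and Map2 (8.39, against 7.47 and 7.13); without that array 11 of the 12 called guidance genes kept their call, Sema4c being the exception. The part of these shifts in the changes of guidance genes was not tested. In bulk RNA, fewer cells of a type and less RNA per cell cannot be told apart.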

How the data were processed

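Total RNA of 6 pericyte samples was measured on 1-colour biotin arrays. The authors deposited 1 table of log2 values for 21225 probe sets. Per the submitters' processing notes they come from RMA. Its software and version, the array's build and any filter were not given in the sources used here. Scanner files were not used. RMA equalises the arrays, so a change in total RNA cannot be seen. GEO's platform annotation names 20239 probe sets by 1 gene symbol each; the other 986 (4.65%) are unnamed here.

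Groups follow the sample titles. limma (version 3.58.1, R 4.3.3; lmFit and eBayes, group as the only factor, no filter) was fitted to all named genes, two-sided, and only the members were read from it. On data simulated with the means and spreads of these genes, 100 genes were changed at each of 2 sizes. The fit recovered 87% of changes of 1 log2 unit and 97% of 2, and called 7 unchanged genes. The simulation had no pairs of arrays and no smaller changes, so it does not show how many of those would be found. It also changed far fewer genes than the 4342 called in the data, and the adjusted p depends on that share. Its recovery and its false calls may thus differ from those in these data. The arrays' number, 3 a group, limits the precision, and arrays give no read depth. Medians were 8.43 to 8.46 on every array; arrays of a group correlated at 0.994 to 0.996.

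Deviations from the group means correlated across genes at 0.25, 0.32 and 0.25 between same-numbered arrays and at -0.28 to 0.01 between others, so the numbers were taken as pairs and the replicate block is an alternative fit. Deviations were centred within each group, so these correlations depend on each other. Calls made only with the block rest on this inferred pairing. Other alternatives were a repeated quantile normalization, median centring, only genes at or above the median level, a variance trend, all probe sets, and leaving out each array.

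The members, the partner and marker lists and the promoter motifs were chosen with earlier results of these data known. Genes named are all called members, those with an unadjusted p under 0.05, the 8 remaining members with the highest mean, up to 8 called partners in each direction by smallest p, and Nrp1, Nrp2, Dcc and Neo1. Other genes named (Sema3d, Sema3e, Ntn4, Itgb1, Dpysl2, Flt1, Pdgfrb, Stmn2, Map2, Anpep, Cd248, Mbp, Cd3e and Ank1) were picked after their values were seen.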

Additional observations from a re-analysis of the deposited data

How the results depend on the processing

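The count of guidance genes that rose was 5. It was 11 with the replicate block, where 2213 of all 20239 genes rose. The 10120 genes at or above the median level held 28 of the members. When only these genes were tested, 8 members and 1946 genes rose, and 7 members and 1967 genes fell. The block took away no call of a named member or partner. Leaving out 1 array, 4 to 6 guidance genes rose and 5 to 8 fell, 6 to 8 partners rose and 8 to 12 fell, and over all genes 1420 to 2031 rose and 1514 to 2188 fell, against 2037 and 2305 with all arrays. Of the 12 called members, 9 kept their call in all 6 of these fits; Sema3c, Sema4c and Plxnb2 did not. Among the 28 members followed through these fits, the sign of 3 turned on leaving out some array: Sema3f ran from -0.16 to 0.06, Sema6a from -0.16 to 0.39 and Slit3 from -0.01 to 0.10. Testing only the brighter genes also called Robo1, Sema4b, Unc5a and Unc5b (adjusted p = 0.035, 0.035, 0.038 and 0.042, limma) but left out Sema4g, which lay under the median, and median centring called Sema4b (0.043). At the 75th percentile of the blood cell markers 38 members, rather than 31, lay above the background level, and at the 95th 31 did.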
